A study of Mus musculus with 6 samples.

Results

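The genes described here are the 8 that write, keep and remove 5-methylcytosine in mouse DNA: Tet1, Tet2, Tet3, Dnmt1, Dnmt3a, Dnmt3b, Tdg and Uhrf1. They were chosen by name, and every region that the deposited tables assign to one of these symbols was taken. They are 8 of the 26742 genes named in the 4 tables, with 129 of the 456310 listed regions. The data were 6 CUT&Tag libraries from mouse hearts' primary cardiac fibroblasts, a method in which an antibody tethers a transposase to chromatin so that reads mark the places its target occupies. Library titles carry the letter T or S. The study profiled TAZ and SRF, and it is only inferred that T stands for TAZ and S for SRF, since no label names the antibody. Each set had 1 library of each treatment, namely NC, TGF-b (the cytokine that activates fibroblasts) and TGF-b with an siRNA, which the labels call TGF-b+SiTAZ in the T set and TGF-b+SiSRF in the S set. The study's text speaks instead of siRNA against Piezo2 in this kind of experiment, and these libraries cannot check a knockdown. The series text also speaks of a Cre-driven loss of Tet3 that no sample label carries, so it is not stated whether the cells of these libraries had it. The labels give no strain, age, sex, dose or time, and do not say whether cells of several mice were pooled.

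With 1 library per group there was no replicate, and no difference below was set against biological spread. The intervals given for single regions are 95% counting intervals (Wilson), which cover counting error only, and PCR copies are not independent molecules. Rank intervals given for medians treat regions as independent and are a description only. As a check of the cell type, 8 of 10 fibroblast markers had a region within 3 kb of a transcription start site (TSS) in the T set and 2 of 10 in the S set. For cardiomyocyte markers this was 8 of 8 and 5 of 8, for endothelial markers 4 of 6 and 2 of 6, and for leukocyte markers 5 of 6 and 1 of 6. The presence of a called region therefore did not separate fibroblast genes from those of other cell types, and the part of other cells in the values below was not tested.

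DNA methyltransferases put a methyl group on cytosine, mostly at CG dinucleotides. Dnmt3a and Dnmt3b methylate new sites, whereas Dnmt1 copies existing methylation after replication, guided to hemimethylated DNA by Uhrf1. The TET enzymes Tet1, Tet2 and Tet3 oxidise 5-methylcytosine, and the glycosylase Tdg cuts out the oxidised base so that repair can put back a plain cytosine. TEAD proteins, the DNA-binding partners of TAZ, recognise a core written GGAATG, and SRF recognises the CArG box. A region at one of these genes shows where an antibody's target was recovered, and says nothing of the gene's transcription.

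Promoters are shown first for the 3 genes at which a region was centred within 250 bases before or 50 after a start site that RefSeq also lists. These were Uhrf1, which has 2 such starts, Dnmt1 and Tdg. The sequences are from RefSeq (mouse build GRCm38.p6, read on the gene's strand, 5′ to 3′) and run from 250 to 21 bases before the start. Region coordinates elsewhere in the text are those of the deposited tables, whose build differs from that of these sequences. The link between region and sequence is therefore the transcript named in the tables, whose start was the RefSeq start or lay within 16 bases of it in that same older build. Capitals mark GGAATG or the GC box GGGCGG on either strand.
Uhrf1, upstream start, chr17:56303087-56303316, plus strand: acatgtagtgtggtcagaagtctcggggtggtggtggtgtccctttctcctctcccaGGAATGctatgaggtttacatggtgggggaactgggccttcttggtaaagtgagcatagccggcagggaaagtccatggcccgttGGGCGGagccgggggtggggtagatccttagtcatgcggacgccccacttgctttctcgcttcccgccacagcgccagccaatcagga
Uhrf1, downstream start, chr17:56304063-56304292, plus strand: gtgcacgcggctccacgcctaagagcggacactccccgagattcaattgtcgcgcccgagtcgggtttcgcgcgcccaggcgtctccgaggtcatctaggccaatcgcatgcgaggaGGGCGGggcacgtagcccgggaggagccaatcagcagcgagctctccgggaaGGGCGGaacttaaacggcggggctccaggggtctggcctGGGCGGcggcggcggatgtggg
Dnmt1, chr9:20953000-20953229, minus strand: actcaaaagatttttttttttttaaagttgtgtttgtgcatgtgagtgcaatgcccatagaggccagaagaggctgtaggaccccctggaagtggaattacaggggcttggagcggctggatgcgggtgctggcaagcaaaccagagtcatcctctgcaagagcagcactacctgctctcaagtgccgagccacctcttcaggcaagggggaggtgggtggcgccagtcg
Tdg, chr10:82629588-82629817, plus strand: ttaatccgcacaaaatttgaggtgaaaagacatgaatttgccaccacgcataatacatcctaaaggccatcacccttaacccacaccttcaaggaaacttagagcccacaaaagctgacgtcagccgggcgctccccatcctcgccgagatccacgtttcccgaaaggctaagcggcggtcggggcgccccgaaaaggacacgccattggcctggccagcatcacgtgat

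The upstream Uhrf1 promoter held GGAATG from base -193 to -188 and a GC box from -108 to -103. The downstream Uhrf1 promoter held 3 GC boxes and no GGAATG. No copy of either motif was found in the Dnmt1 and Tdg windows. Over the whole 300-base windows, GGAATG or its complement was present in 1 of the 13 RefSeq windows of the 8 genes and in 14.7% of all 32851 promoter windows. The GC box was present in 10 of the 13 and in 35.7% of all windows, and the CArG box in 0 of 13 and 1.63% of all. The windows differed widely in CG dinucleotides, from 2 to 57 against a median of 7 over all promoters. The printed windows, counted over 300 bases, held 12 (Uhrf1, upstream), 33 (Uhrf1, downstream), 12 (Dnmt1) and 26 (Tdg). A match of letters is a description of the sequence and not a bound site.

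At Uhrf1, which recruits Dnmt1, both start sites were covered in the T set. The region chr17:56610163-56610260 was centred 110 bases before the start of ENSMUST00000001258. The NC library had 24 reads there, the TGF-b library 22 and the siRNA library 9. The region chr17:56611154-56611306 was centred 83 bases before the start of ENSMUST00000113035 and had 21, 25 and 7 reads. At both start sites the NC and TGF-b libraries had similar numbers of reads, and the siRNA library had the fewest. On the scale of the deposited normalized read densities, the log2 ratio of TGF-b over NC was -0.08 (interval -0.91 to 0.74) at the upstream and 0.28 (-0.54 to 1.12) at the downstream start. The log2 ratio of siRNA over TGF-b was -0.74 (-1.92 to 0.27) and -1.24 (-2.55 to -0.20). The interval of the latter left out 0, with densities of 11.1 and 4.70, a 2.36-fold lower value. Centred on each table's median, the downstream ratio of TGF-b over NC became 0.93 (0.12 to 1.77) and the upstream ratio of siRNA over TGF-b -1.71 (-2.89 to -0.70), so that both of these intervals then left out 0. The midpoints of these regions are just over 1 kb apart and reads were counted in 2-kb windows, so the regions share reads and are not separate evidence. A further T set region of Uhrf1, 1057 bases before a retained-intron transcript, had 12 reads in NC and 4 in TGF-b (log2 -1.24, -3.00 to 0.11). No region was assigned to Uhrf1 in the S set.

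Dnmt1, the maintenance methyltransferase, had 8 T set regions for TGF-b over NC. Of these, 3 were at least 2-fold higher and 0 at least 2-fold lower, where 17.3% of all regions of the table were higher and 42.1% lower by that much. The region chr9:20862866-20863043 lies in intron 1, 947 bases after the start of ENSMUST00000216540, and was called in all 3 libraries. Reads numbered 10 in NC, 27 in TGF-b and 34 with siRNA. Its log2 ratio was 1.41 (0.47 to 2.52) for TGF-b over NC and 0.80 (0.09 to 1.53) for siRNA over TGF-b. This region was thus higher in TGF-b than in NC, beyond counting error. On the deposited scale it was higher again with the siRNA, beyond counting error. When the second ratio was centred on the median of all regions, it became -0.17 (-0.88 to 0.56), and without the authors' line it was 0.32. The region in the 5′ UTR, whose window overlaps that of the intron 1 region, lies at chr9:20864193-20864288, 35 bases after the start of ENSMUST00000004202. It had 19 reads in NC and 29 in TGF-b (densities 9.88 and 15.2, log2 0.62, -0.18 to 1.47). Farther up, 2923 bases before that start, 0 reads in NC stood against 8 in TGF-b and 2 with siRNA. With the floor of 3 reads in NC, that was at least 2.63-fold higher in TGF-b. The remaining 5 regions, some in overlapping windows, had between 5 and 12 reads in NC and in TGF-b. The ratio of 1 of them, 5 reads against 10 in intron 4, was past 2-fold (log2 1.01, -0.35 to 2.62). Of the 7 Dnmt1 regions in the siRNA comparison, 1 was at least 2-fold higher and 2 at least 2-fold lower, against 49.7% and 16.2% of all regions there.

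Tdg had its promoter region, chr10:82465508-82465638, 89 bases before the start of ENSMUST00000092266. There were 10 reads in NC, 17 in TGF-b and 10 with siRNA. The log2 ratio was 0.80 (-0.25 to 1.95) for TGF-b over NC and -0.25 (-1.40 to 0.80) for siRNA over TGF-b, so neither step passed counting error on the deposited scale. Centred on each table's median, both intervals left out 0, with 1.45 (0.40 to 2.60) and -1.22 (-2.37 to -0.17). Regions just inside intron 1 of the gene went the other way, although their 2-kb windows partly overlap that of the promoter region. The region at chr10:82466995-82467107 had 23 reads in NC and 6 in TGF-b (densities 11.6 and 3.62, log2 -1.68, -3.10 to -0.59). A neighbour at chr10:82467186-82467260 had 19 and 6 reads (log2 -1.41, -2.84 to -0.28) and shares most of its window with it. After centring, both of these intervals included 0 (-2.45 to 0.06 and -2.19 to 0.37). At 1856 bases from the start of ENSMUST00000145370, 9 reads in NC stood against 0 in TGF-b and 3 with siRNA, at least 2.14-fold lower in TGF-b at the floor. A region 4644 bases before a retained-intron start held 0, 7 and 5 reads, at least 2.35-fold higher in TGF-b. The siRNA comparison added a region in intron 9 with 0 reads in TGF-b and 6 with siRNA, at least 2.37-fold higher.

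Tet3, the TET enzyme the study is about, had 9 T set regions for TGF-b over NC. Of these, 4 were at least 2-fold lower in TGF-b and 0 at least 2-fold higher, against 42.1% and 17.3% of all regions, so the share that was lower is near the background. In intron 2, chr6:83430190-83430275, 3142 bases after the start of ENSMUST00000186548, had 24 reads in NC and 2 in TGF-b (log2 -2.93, -5.39 to -1.52). Also in intron 2, chr6:83412354-83412422 had 26 and 5 reads (log2 -2.07, -3.62 to -0.95). In intron 3, chr6:83377517-83377762 had 21 and 5 reads (log2 -1.77, -3.32 to -0.61). All 3 were called only in NC, so they were listed for their reads there. The median log2 ratio of all regions called only in NC was -1.27. The 3 windows do not overlap, and each counting interval lay below 0. After centring on the table's median, the last of these ratios became -1.12 with an interval that includes 0 (-2.67 to 0.04), while the intervals of the first and second ended at -0.87 and -0.30. The region with the highest mean density, chr6:83417474-83417551, in the exon of a retained-intron transcript, had 22 and 10 reads (densities 11.2 and 5.65, log2 -0.99, -2.12 to -0.01, and with 0 inside the interval after centring). Closest to a protein-coding start was chr6:83434492-83434574, 1159 bases before that of ENSMUST00000186548, with 7 reads in both libraries (log2 0.14, -1.31 to 1.59). The other 4 regions had 4 to 11 reads in NC and 0 to 10 in TGF-b, and 1 of them, with 6 and 0 reads, is the fourth past 2-fold and only at least 1.48-fold lower at the floor.

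In the siRNA comparison Tet3 had 6 regions, with 3 at least 2-fold higher and 1 at least 2-fold lower with siRNA, near the 49.7% and 16.2% of all regions. At chr6:83430301-83430365 the TGF-b library had 2 reads and the siRNA library 10 (log2 2.32, 0.75 to 4.79, after centring 1.35, -0.22 to 3.82). The other higher ones held 1 and 3 reads, and 0 and 4 reads. This region begins just past the end of the one with 24 and 2 reads above, and its window is nearly the same, so that the 3 libraries held 24, 2 and 10 reads around this position. Among all 14 Tet3 regions of the T set, 8 were called in NC, 1 in TGF-b and 5 with siRNA. Called regions were fewest in TGF-b over the whole T set too, with 127036 in NC, 53121 in TGF-b and 134584 with siRNA. The region called in TGF-b, chr6:83405338-83405469 in intron 2, held 6, 10 and 0 reads in NC, TGF-b and siRNA (at least 2.02-fold lower with siRNA at the floor). No region was assigned to Tet3 in the S set.

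**Figure D1:**
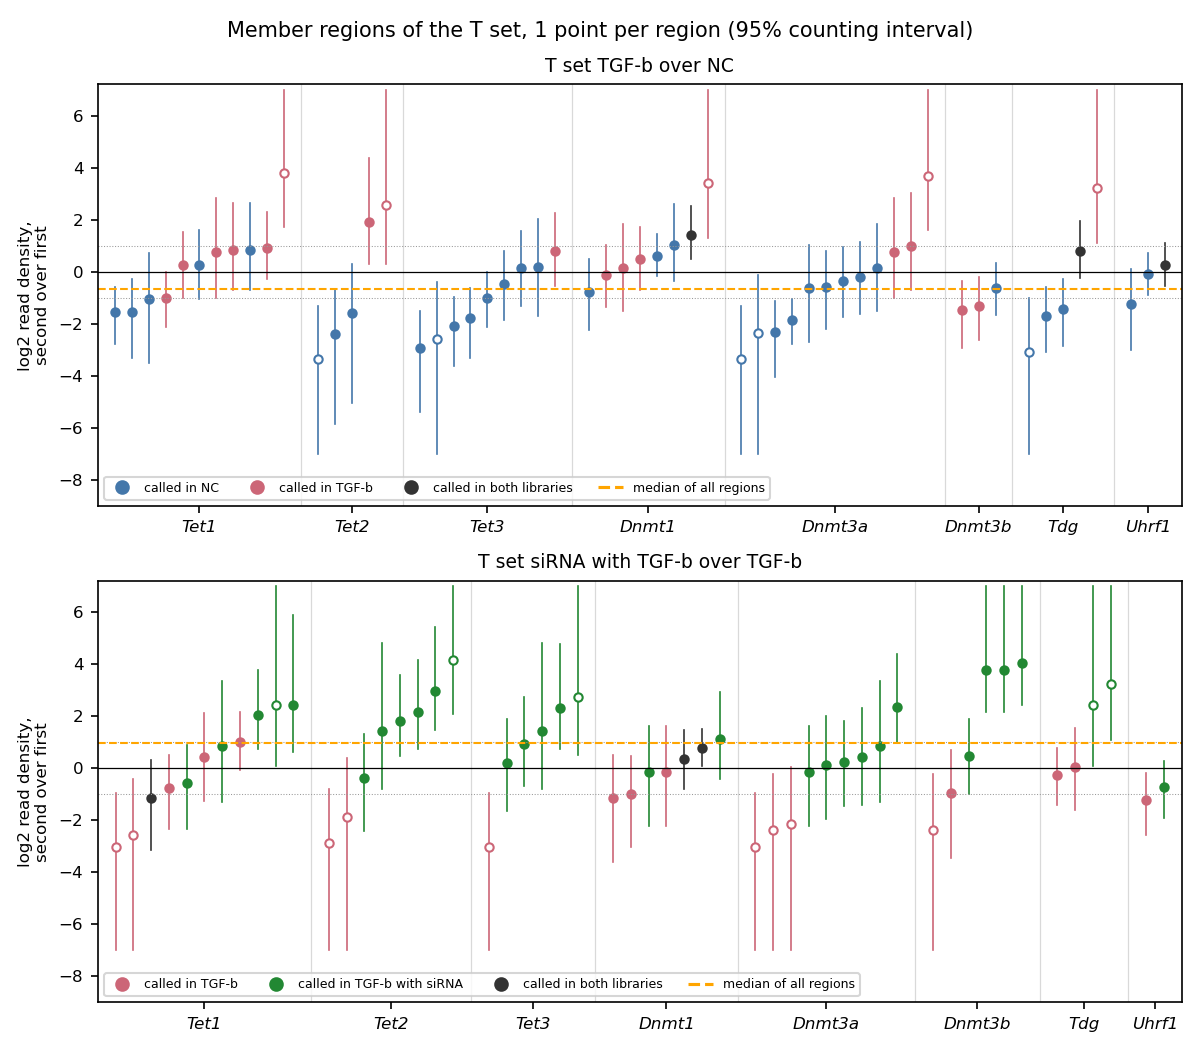
Log2 ratio of normalized read density (y axis, second library over first) of every T set region of the 8 genes (x axis, regions ordered by ratio within a gene), 56 regions for TGF-b over NC and 53 for siRNA with TGF-b over TGF-b. Points are regions coloured by the library in which they were called, bars are 95% counting intervals drawn to 7 at most, open points have 0 reads in a library, dotted lines mark 2-fold and the dashed line the median of all regions. Points called in the earlier library lie mostly below 0 and points called in the later one mostly above.

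Tet1, which binds CG-rich DNA, had 11 T set regions in either comparison. For TGF-b over NC, 1 was at least 2-fold higher and 3 at least 2-fold lower, against 17.3% and 42.1% of all regions. Among the lower ones, chr10:62679701-62679797 in intron 2 had 15 reads in NC and 4 in TGF-b (log2 -1.55, -3.30 to -0.26). In intron 1, chr10:62721757-62721827, 1311 bases after the start of ENSMUST00000218438, had 27 reads in NC and 8 in TGF-b (densities 13.6 and 4.62, log2 -1.56, -2.79 to -0.57). Nearer to that start, at 337 bases, chr10:62722692-62722840 held 22 NC reads, 10 TGF-b reads and 15 siRNA reads. Its log2 ratio was -0.99 (-2.12 to -0.01) for TGF-b over NC and 1.0 (-0.08 to 2.17) for siRNA over TGF-b. The TGF-b library was the lowest of the 3 here, although the region was called in that library and not in NC. These windows overlap. After centring, the intervals of these 3 TGF-b over NC ratios all included 0. A second protein-coding start, that of ENSMUST00000050826, had a region 2583 bases downstream, in intron 1, where reads were 0, 11 and 3 in the same order. There TGF-b was at least 3.48-fold higher than NC, and the change with siRNA was -1.13 (-3.16 to 0.31). The Tet1 regions thus differed in direction within the gene.

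Tet2 had 5 T set regions for TGF-b over NC, of which 2 were at least 2-fold higher and 3 at least 2-fold lower, against 17.3% and 42.1% of all regions, all with 11 reads or fewer per library. Of the lower ones, those in Tet2 introns had 11 reads in NC and 1 in TGF-b (log2 -2.40, -5.87 to -0.69), and 6 and 1 reads (log2 -1.60, -5.04 to 0.28). The other, in an intron of the gene Gm42567 and assigned to Tet2 by its nearest TSS, had 11 and 0 reads (at least 2.59-fold lower). The one nearest a TSS, chr3:133248904-133249024 in intron 1, 1099 bases after the start of a retained-intron transcript, held 2, 9 and 0 reads in NC, TGF-b and siRNA. Its log2 ratio for TGF-b over NC was 1.91 (0.31 to 4.38). In the siRNA comparison 5 of 8 Tet2 regions were at least 2-fold higher and 2 at least 2-fold lower, where 49.7% and 16.2% of all regions were. Downstream of the gene, chr3:133167915-133167986 went from 2 TGF-b reads to 16 siRNA reads (log2 2.96, 1.49 to 5.42). In an exon of a retained-intron transcript, chr3:133177493-133177568 had 4 and 12 reads (log2 1.83, 0.48 to 3.60), and in intron 2, chr3:133218598-133218717 had 3 and 12 (log2 2.15, 0.73 to 4.18). After centring, the last pair of intervals included 0. A region at chr3:133277464-133277532 had 0 and 12 reads, at least 4.42-fold higher with siRNA. That last region lies in an intron of Gm42567 as well.

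Dnmt3a, a de novo methyltransferase, had 12 T set regions for TGF-b over NC, the most of the 8 genes, with 1 at least 2-fold higher and 4 at least 2-fold lower, against 17.3% and 42.1% of all regions. The one with the most reads of all regions of the 8 genes was chr12:3934735-3934885, 639 bases before the start of ENSMUST00000174102. Its reads were 50 in NC and 13 in TGF-b (densities 25.3 and 7.07). The log2 ratio was -1.84 (-2.78 to -1.05), a 3.57-fold lower density in TGF-b. At chr12:3904499-3904730 in intron 3 the reads were 26, 4 and 3 in NC, TGF-b and siRNA (log2 -2.33, -4.05 to -1.14, then 0.12, -1.96 to 2.03). This region was low in both TGF-b libraries. At chr12:3911413-3911502, 436 bases after the start of ENSMUST00000172816, the reads were 6, 3 and 14, with a log2 ratio of 2.36 (0.98 to 4.38) for siRNA over TGF-b. In an intron of a short transcript, chr12:3884061-3884250 had 0, 10 and 0 reads. There TGF-b was at least 3.20-fold above NC, and the siRNA library at least 2.02-fold below TGF-b. At the other end of the gene, chr12:3955688-3955755, 1095 bases before the start of ENSMUST00000172913, had 11 reads in NC and 0 in TGF-b, at least 2.59-fold lower. The regions at the far 5′ end of the gene, 894 and 1590 bases after the start of ENSMUST00000174817, had 9 and 7, and 10 and 7 reads (log2 -0.19 and -0.34), in overlapping windows.

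Dnmt3b, the other de novo methyltransferase, had 3 neighbouring regions for TGF-b over NC in the 3′ part of the gene. Each window had 20 reads in NC, with 6, 12 and 7 in TGF-b. The log2 ratios were -1.48 (-2.91 to -0.36) in exon 17, -0.62 (-1.68 to 0.35) and -1.30 (-2.63 to -0.21) in intron 19, and the windows overlap. After centring, all 3 intervals included 0. With siRNA the exon 17 and last intron 19 regions had 0 and 2 reads, so the reads there were lower in each of the later libraries. Other Dnmt3b regions, called only with siRNA and so listed for their reads there, had a single read in TGF-b and many with siRNA. The median log2 ratio of all regions called only with siRNA was 1.62. In intron 1, chr2:153502078-153502231 had 1 and 23 reads (densities 0.855 and 14.0, log2 4.04, 2.43 to 7.52). In intron 20, chr2:153524289-153524353 and chr2:153524778-153524860 both had 1 and 19 reads (log2 3.77, 2.15 to 7.25), in overlapping windows, so they are not separate evidence. With the single TGF-b read set to the floor of 3, these log2 ratios were 3.04 in intron 1 and 2.77 in intron 20. No Dnmt3b region lay within 3 kb of a TSS for TGF-b over NC, and in the siRNA comparison 1 did, with 7 reads in both libraries.

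**Figure D2:**
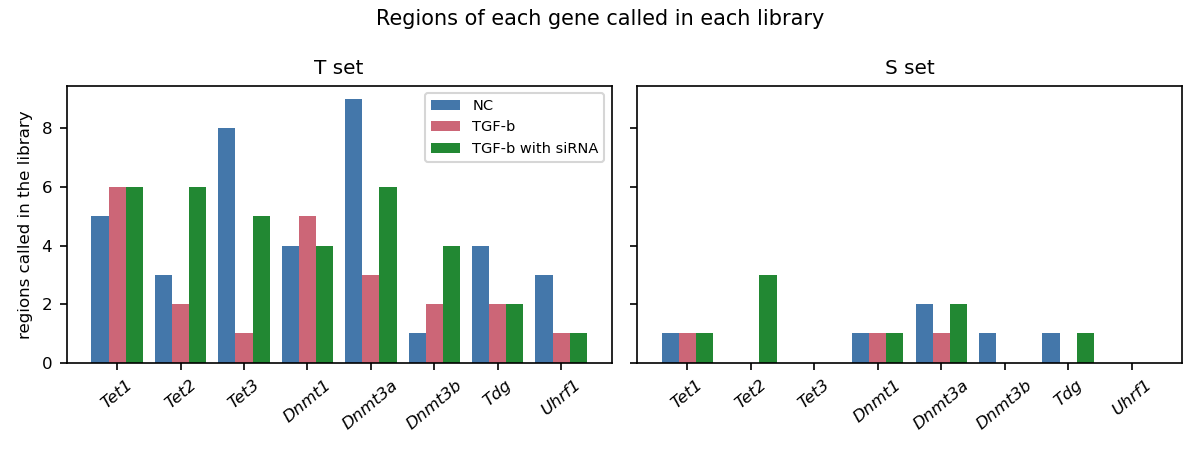
Number of regions (y axis) assigned to each of the 8 genes (x axis) that were called in each library, T set on the left and S set on the right, with bars coloured by treatment. In the T set 37 regions were called in NC, 22 in TGF-b and 34 with siRNA, and Tet3 falls from 8 to 1 between NC and TGF-b. Over the whole T set the called regions fell and rose in the same order, with 127036 in NC, 53121 in TGF-b and 134584 with siRNA.

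Over all 8 genes, 20 of the 56 T set regions were at least 2-fold lower in TGF-b than in NC and 8 at least 2-fold higher. Among all 170890 regions of that table, 42.1% were at least 2-fold lower and 17.3% at least 2-fold higher. The median log2 ratio was -0.27 (95% rank interval -0.99 to 0.25) for the regions of the 8 genes and -0.65 for all. The 2-kb windows of the 56 regions form 45 groups that do not overlap each other, so the regions are not independent. In the siRNA comparison 19 of the 53 regions were at least 2-fold higher and 13 at least 2-fold lower. Of all 180118 regions there, 49.7% were at least 2-fold higher and 16.2% at least 2-fold lower. The medians were 0.35 (-0.25 to 1.0, with 47 such groups of windows) and 0.97. Both medians of the 8 genes lay on the same side of 0 as those of their tables, and both turned to the other side when centred on the table's median, to 0.39 and -0.62. Centred in this way, 18 regions were higher and 12 lower for TGF-b over NC, and 14 higher and 22 lower with siRNA. The shares of all regions above are for the deposited scale and do not apply to these centred counts. The scale also decides which intervals include 0. For TGF-b over NC, 26 of the 56 intervals left out 0, with 7 above and 19 below it. Of all 170890 intervals, 25304 lay above 0 and 53096 below. After centring, 11 of the 26 included 0 while 6 others left it out. In the siRNA comparison 24 of 53 left out 0, with 16 above and 8 below it. Of all 180118 there, 70095 lay above 0 and 20570 below. Centring then led 9 of the 24 to include 0 and 10 others to leave it out. Nothing particular to the 8 genes is read from these counts.

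The direction of a region mostly followed the library in which it was called. For TGF-b over NC, 7 of the 34 regions called only in NC had a ratio above 0, among them those in Dnmt1 intron 4 and 5′ UTR. In 3 of these 7 the reads were equal, so that the sign came from the authors' line. In turn, 4 of the 19 called only in TGF-b had fewer reads there than in NC, including 2 of Dnmt3b and the Tet1 region at 337 bases. With siRNA the exceptions numbered 3 of 19, of which 1 had equal reads and 1 fewer reads with siRNA, and 5 of 31. In the table of TGF-b and NC, the 34 regions called only in NC had a median log2 ratio of -1.14, against -1.27 for all regions of that kind. The 19 called only in TGF-b had 0.78 against 1.41. In the siRNA table the 19 called only in TGF-b had -1.24 against -1.42, and the 31 called only with siRNA had 1.44 against 1.62. Of the 8 genes' regions, 3 of 56 (5.36%, against 5.42% of all regions) were called in both libraries of the TGF-b and NC table, namely those at Dnmt1 intron 1, the Tdg promoter and the downstream Uhrf1 promoter. Reads per region were few, with a median of 9 in NC and 7 in TGF-b, and a median of 5 in TGF-b and 4 with siRNA. A library had 3 reads or fewer in 19 of the 56 regions (33.9%, against 49.3% of all) and 35 of the 53 (66%, against 57.9%).

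Most regions of the 8 genes were intronic, 43 of 56 for TGF-b over NC and 40 of 53 in the siRNA comparison. Among all regions with a named gene, introns held a similar share, 74.6% and 75.2%, against 76.8% and 75.5% for the 8 genes. The share within 3 kb of a listed TSS was 39.3% and 32.1%, against 27.9% and 26.6% of all regions assigned to a named gene. Not every such TSS is a main start of the gene, since 18 of the 22 regions within 3 kb for TGF-b over NC lay at protein-coding transcripts and the others at a retained-intron or nonsense-mediated-decay transcript. Across genes, the median number of regions per gene was 2 in both T set tables, against 6.5 for the 8 genes.

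**Figure D3:**
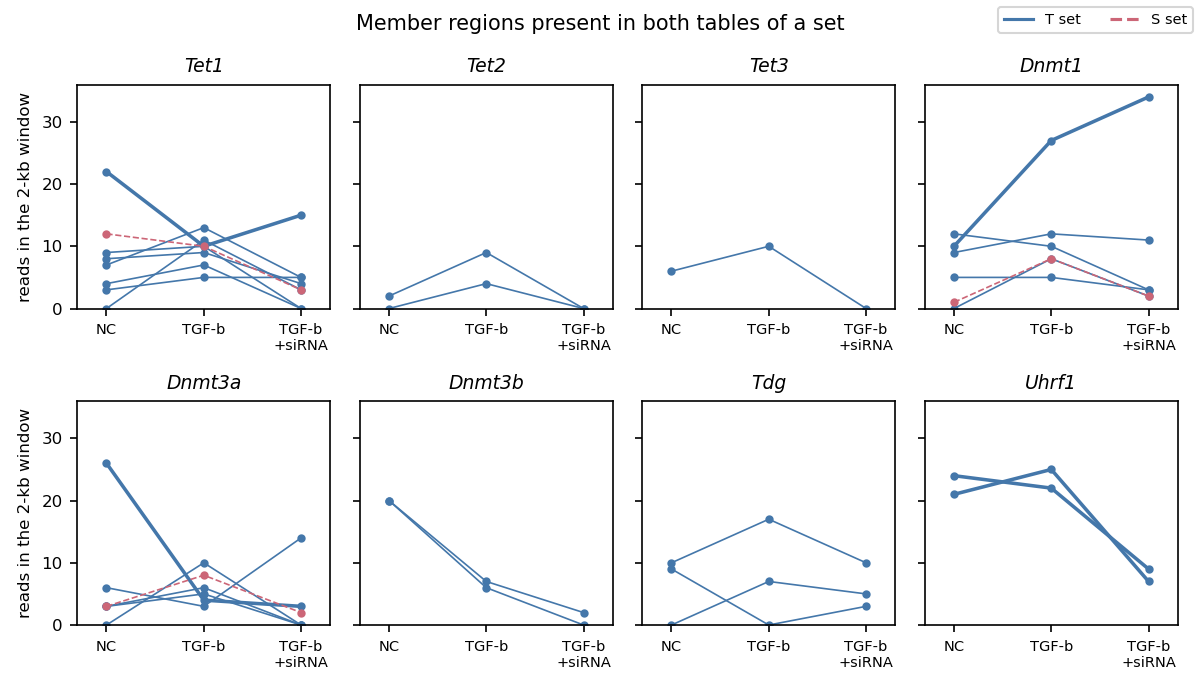
Reads in the 2-kb window (y axis) in the NC, TGF-b and TGF-b with siRNA libraries (x axis) for each region of the 8 genes that is in both tables of its set, 27 T set regions (solid) and 3 S set regions (dashed), with thick lines for regions over 20 reads. Reads at the Dnmt1 intron 1 region go from 10 to 27 to 34, and those at both Uhrf1 promoters end at 9 and 7.

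Reads in all 3 libraries were available for the 27 T set regions in both tables, of 82 distinct ones. The TGF-b reads recovered from the separate tables were equal in 27 of 27. A region enters both tables when it was called in TGF-b, or in both other libraries, so most of these were called in TGF-b, and that library had the most reads in 16 of 27 and the fewest in 3. With over 20 reads in a library there were 5 such regions: both Uhrf1 promoters, Dnmt1 intron 1, Tet1 at 337 bases and Dnmt3a at chr12:3904499-3904730. Of these 5, the upstream Uhrf1 promoter and the Dnmt3a and Tet1 regions had the most reads in NC, the downstream Uhrf1 promoter in TGF-b, and Dnmt1 intron 1 with siRNA.

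In the S set the 8 genes had few regions, 9 of 52723 for TGF-b over NC and 11 of 52579 for siRNA over TGF-b. Neither Tet3 nor Uhrf1 had one, where 62.1% of all named genes had a region in either S set table and 96.1% in either T set table. For TGF-b over NC, 1 of the 9 regions was at least 2-fold higher and 4 at least 2-fold lower, against 17.4% and 26.7% of all regions. The median log2 ratio was -0.81 (-2.47 to 0.57) against -0.20 for all. In this table equal reads give a ratio below 0 after the authors' line, as at Tdg in intron 1, where 6 reads in both libraries gave -0.59. The lower ones were Tet1 in intron 1 with 10 and 2 reads (log2 -2.47, -4.94 to -0.90), Dnmt3a in an exon with 9 and 3 (log2 -1.92, -3.95 to -0.41), Dnmt3a in intron 6 with 9 and 4 (log2 -1.59, -3.37 to -0.15, centred interval up to 0.05), and Dnmt3b in intron 20 with 6 and 0, at least 2.71-fold lower at the floor. Dnmt1 at chr9:20849151-20849396 was the higher one, with 1 and 8 reads (log2 1.56, -0.23 to 5.01).

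For siRNA over TGF-b in the S set, 8 of the 11 regions were at least 2-fold higher and 3 at least 2-fold lower, against 15.1% and 27.8% of all regions. The median was 1.59 (-1.44 to 3.18) against -0.21 for all, and no region of the 8 genes lay between. The 8 higher regions were those called only with siRNA and the 3 lower ones those called only in TGF-b. Over all regions called only with siRNA, 7871 of 26688 were at least 2-fold higher, with a median of 0.54. Of all those called only in TGF-b, 14053 of 23841 were at least 2-fold lower, with a median of -1.19. A library had 3 reads or fewer in 10 of the 11, against 26.8% of all regions. Tet2 had 3 of the higher ones. At chr3:133287925-133288001, in an intron of Gm42567, the TGF-b library had 5 reads and the siRNA library 19 (densities 2.90 and 10.3, log2 1.83, 0.65 to 3.39). In Tet2 intron 1, reads were 3 and 10 (log2 1.59, 0.11 to 3.62) at chr3:133222121-133222211 and 0 and 9, at least 2.82-fold higher, at chr3:133241544-133241630. All 3 Tet2 regions had more reads with siRNA, and they were listed because they were called in that library. The other higher regions were at Dnmt3a (3 and 13 reads, log2 1.93, 0.53 to 3.95, and 3 and 7 reads, log2 1.14, -0.47 to 3.19), Tet1 in the 3′ UTR (2 and 9 reads, log2 1.88, 0.27 to 4.35), Dnmt1 (3 and 8 reads, 2.47-fold, log2 interval -0.25 to 3.35) and Tdg (0 and 7 reads, at least 2.27-fold). The lower ones were Tet1, Dnmt1 and Dnmt3a with 10 and 3, 8 and 2, and 8 and 2 reads, and their intervals all included 0 (upper bounds 0.14, 0.20 and 0.20).

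**Figure D4:**
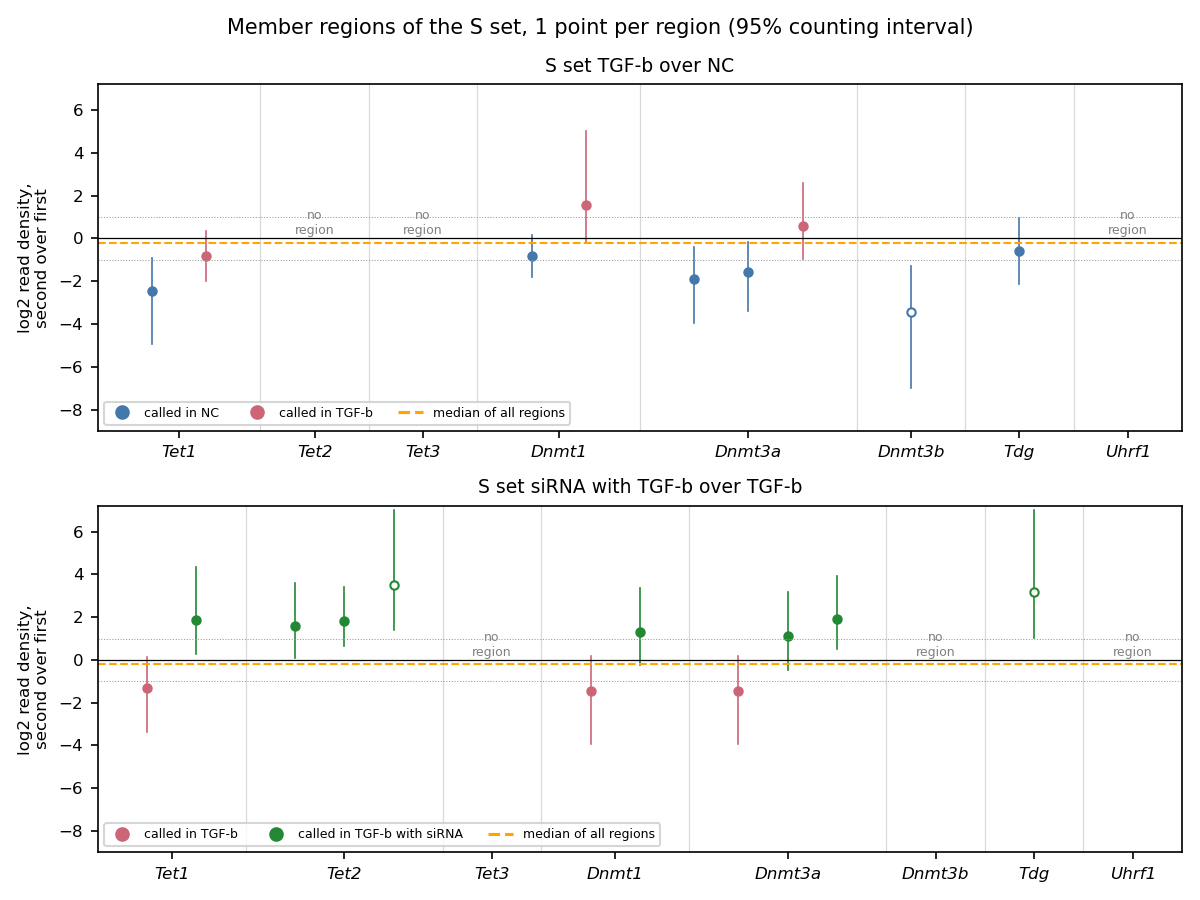
Log2 ratio of normalized read density (y axis, second library over first) of every S set region of the 8 genes (x axis), 9 regions for TGF-b over NC and 11 for siRNA with TGF-b over TGF-b. Colours give the library in which a region was called, bars 95% counting intervals drawn to 7 at most, open points 0 reads in a library, dotted lines 2-fold and the dashed line the median of all regions. All 8 regions called only with siRNA lie above the 2-fold line.

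Regions of the T and S sets overlapped by at least 1 bp at 3 places. At the Dnmt1 5′ UTR the T set region had 19 reads in NC and 29 in TGF-b, and the S set region, chr9:20864183-20864318, had 18 and 15 (densities 11.5 and 6.60, log2 -0.80, -1.79 to 0.15). The T set ratio there was 0.62, so the signs differ, with 0 inside both intervals on the deposited scale. After centring, the T set interval left out 0 (1.27, 0.47 to 2.12) and that of the S set did not (-0.61, -1.59 to 0.35), and without the authors' line the S set ratio was -0.25. In intron 1 of Dnmt3a, the T set had 5 reads in both NC and TGF-b, and the S set had 3 in NC, 8 in TGF-b and 2 with siRNA. In intron 20 of Dnmt3b, the T set had 1 TGF-b read and 19 siRNA reads, and the S set had 6 in NC and 0 in TGF-b. The sets come from separate libraries, and no test of their difference was run.

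Another 35 genes of DNA methylation, its readers, base excision repair and the metabolites these enzymes use were taken at their strongest region within 3 kb of a TSS. Over all 16652 genes with such a region for TGF-b over NC in the T set, 20.6% were at least 2-fold higher and 25.1% at least 2-fold lower. Of the 27 listed genes with a region, 9 were higher and 5 lower, and of the 7 members with one, 1 was higher (Tet2) and 3 lower (Tet1, Tdg and Dnmt3a). The medians were 0.21 for the listed genes, -0.99 for the members and -0.04 for all genes. After centring on the table's median, 12 listed genes were higher and 3 lower, 2 members were higher and 2 lower, and 37.8% of all genes were higher and 14.7% lower. Among those higher were Gadd45g, a factor linked to demethylation (3 and 40 reads, log2 3.45, 2.22 to 5.44), Idh2, which makes the TET co-substrate 2-oxoglutarate (6 and 31 reads, log2 2.27, 1.23 to 3.67), and Xrcc1, a scaffold of base excision repair (14 and 43 reads, log2 1.58, 0.79 to 2.51). Lower were Neil3, a DNA glycosylase (62 and 8 reads, log2 -2.77, -3.96 to -1.88), and Hells, a remodeller needed for DNA methylation (19 and 3 reads, log2 -2.19, -4.20 to -0.87).

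For siRNA over TGF-b in the T set, 31.5% of 16732 genes were at least 2-fold higher and 20.4% at least 2-fold lower. Of 25 listed genes, 4 were higher and 6 lower, with a median of -0.48 against 0.20 for all genes. All 8 members had such a region, with 4 higher, 1 lower and a median of 0.90. Among the 4, Tet3 with 0 and 4 reads, was below 2-fold at the floor. After centring, 1 listed gene was higher and 16 lower, with a median of -1.45, and 2 members were higher and 2 lower, with a median of -0.07. Of all genes, 15.9% were then higher and 43.5% lower, with a median of -0.77. Neil3 had 8 and 30 reads (log2 2.25, 1.27 to 3.47), whereas Xrcc1 had 43 and 7 (log2 -1.99, -3.27 to -1.03). At Neil3 and Xrcc1 the order of NC, TGF-b and siRNA reads was 62, 8 and 30, and 14, 43 and 7. In the S set, 13 and 17 listed genes had a region. Of these, 1 was higher and 1 lower for TGF-b over NC, against 22.2% and 15.9% of 6762 genes, and 1 was higher and 2 lower for siRNA over TGF-b, against 13.6% and 15.1% of 8145 genes. After centring, 3 were higher and 0 lower for TGF-b over NC, against 28% and 12.6% of all genes. For siRNA over TGF-b, 2 were then higher and 0 lower, against 19% and 11.5%. Only 2 members had such a region in each comparison. On the deposited scale, the higher listed genes were Mbd3 (16 and 49 reads, log2 1.02, 0.27 to 1.88) for TGF-b over NC and Idh1 (13 and 40 reads, 3.03-fold, log2 interval 0.78 to 2.56) for siRNA over TGF-b.

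**Figure D5:**
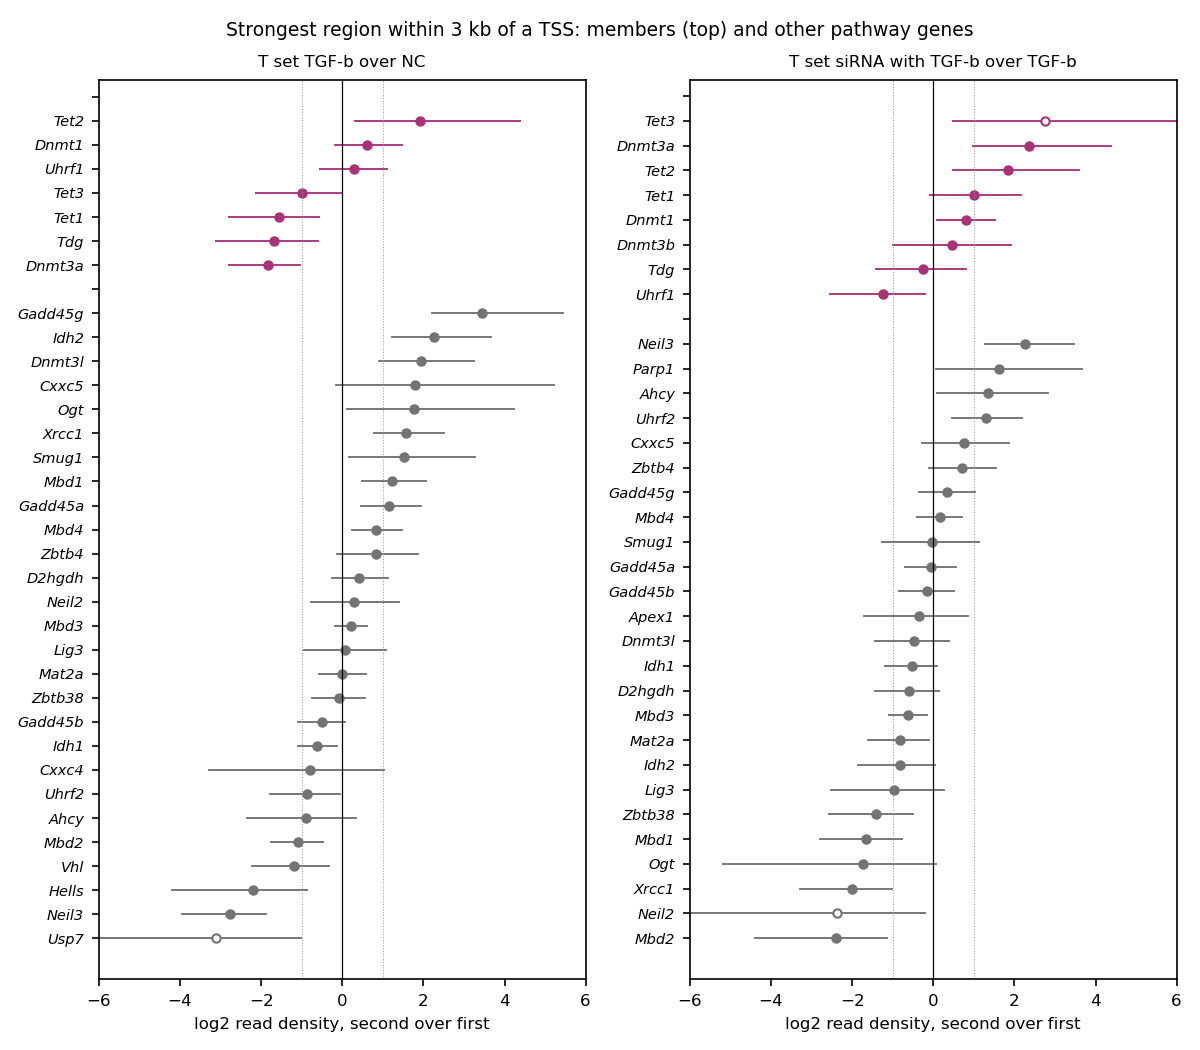
Log2 ratio of normalized read density (x axis, second library over first) of the strongest region within 3 kb of a TSS of each gene (y axis), for the 8 genes (top, coloured) and the other genes of the pathway (grey), T set. Bars are 95% counting intervals, open points have 0 reads in a library and dotted lines mark 2-fold. Tet2 lies above and Tet1, Tdg and Dnmt3a below the 2-fold lines for TGF-b over NC, and Uhrf1 is the lowest of the 8 genes for siRNA over TGF-b.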

How the data were processed

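The authors deposited 4 tables for the 6 libraries, and each sets 2 libraries of 1 set side by side on their merged peaks. The submitters' processing notes name BWA 0.7.12 and mm10, whereas the study's methods name Bowtie2 and GRCm39. Regions on 5 chromosomes end beyond the GRCm38 chromosome lengths, so coordinates were taken as GRCm39. The deposited signal is a normalized read density, reads plus 1 times 0.5 in a window of 2 kb, to which the authors fitted and subtracted a line against mean log2 density. Changes common to all shared peaks are removed by that step. With the line undone, reads were whole to within 0.1 for 99.97% to 99.99% of regions per table, and for every region described. The authors' own fold changes and p-values were not used, and library totals were not used here.

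Folds were computed within a table as later over earlier library. Intervals come from the Wilson interval of a region's share of reads. Calls were at least 2-fold, with no test, and the floor was 3 reads per library. Regions of both tables of a set were joined by merged peak, and T with S by 1 bp. For each gene and table, the regions named were the one of highest mean density within 3 kb of a TSS and that of highest mean density anywhere, those in both tables with over 20 reads, and T and S overlaps. Others were named after their values were seen. Transcript types came from GENCODE M21 by identifier. From the list of other pathway genes, 1 gene is not reported here. Of these steps, only the recovery of the line and of the reads was tested on simulated data. Members and lists were chosen with earlier results of these data known. Python 3.11.15, numpy 2.4.6, pandas 2.3.3 and scipy 1.17.1 were used. Alternatives were centring on the median, no line, a 1.5-fold threshold, regions within 3 kb, regions above the median density and reads set to the floor.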

Additional observations from a re-analysis of the deposited data

Results flagged for a closer look

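At the Dnmt1 5′ UTR, overlapping regions of the T and S sets moved in opposite directions between NC and TGF-b. The log2 ratio was 0.62 for the T region and -0.80 for the S region. No test of this difference was run, since each set has 1 library per treatment, and the counting interval of both ratios includes 0 on the deposited scale. After centring on each table's median the T ratio was 1.27 (0.47 to 2.12), which leaves out 0, and the S ratio -0.61 (-1.59 to 0.35). Without the authors' line the S ratio was -0.25.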

How the results depend on the processing

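The median log2 ratio of the T set regions was -0.27 for TGF-b over NC and became 0.39 when centred on the median of all regions. For siRNA over TGF-b it was 0.35, and became -0.62 when centred and -0.12 without the authors' line. These signs are therefore set by the scaling. The counts that follow have no share of all regions at the same setting beside them, and show only how a setting moves a count. The T set count at least 2-fold higher for TGF-b over NC, 8, was 17 at 1.5-fold and 18 when centred, and the count lower, 20, was 12 when centred. The count lower for siRNA over TGF-b, 13, was 22 when centred and 6 with reads set to the floor. In the S set for TGF-b over NC, the count higher, 1, was 2 without the line and 0 with reads set to the floor, and the count lower, 4, was 7 at 1.5-fold. The other 41 values of medians and counts kept their sign and stayed within the rank interval of the median or within 1.5 times of the count. Of 57 values for single promoter regions, 56 stayed within the region's counting interval and the exception was Dnmt1 in intron 1, given above. No paired analysis was possible because each group has 1 library. Few reads limit every value.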
